A study of Mus musculus with 12 samples.

Results

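The 9 genes described here are Lyz2, Cst3, Cyba, Anxa1, Alox5ap, Clec4d, Clec4e, Axl and Arg2, which are known for their use in monocytes, macrophages and granulocytes, and one of which, Alox5ap, opens the leukotriene pathway. They were taken by name from the table that pairs the array's probes with genes: every probe that carries exactly 1 of these symbols was kept. Each gene had 1 probe, so the set holds 9 of 20736 probes and 9 of 8708 named genes. The rule is by name alone, but the set was proposed with earlier results of these data known.

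The study compared RNA of mice of the diabetes-prone NOD background with RNA of C57BL/6 (B6) mice on 12 two-colour cDNA arrays, 2 arrays per group. Spleen T cells came from NOD mice, from NOD.H2h4 mice, from B6.NODIdd1,5 congenic mice, from B6 recipients of NOD bone marrow (NODtoB6) and from NOD recipients of B6 bone marrow (B6toNOD). The 6th group was B6.NODIdd1,5 kidney cells. Each T cell sample shared its array with B6 spleen T cells, and each kidney sample with B6 kidney cells. Every value is thus a log2 ratio to B6 RNA of the same tissue. The NOD strain is a model of spontaneous autoimmune diabetes, and NOD.H2h4 is its congenic with a different MHC. B6.NODIdd1,5 mice, by their name, carry the NOD intervals Idd1 and Idd5 on B6. Ages, sexes, the preparation of the T cells and any conditioning of the marrow recipients are not stated in the labels, nor is whether the 2 arrays of a group came from separate mice, so the errors below measure the spread between arrays, which may be technical.

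Lysozyme 2 and cystatin C are made in large amounts by cells of the monocyte and macrophage line, lysozyme also by granulocytes. p22phox, from Cyba, anchors the phagocyte NADPH oxidase, and annexin A1 is a glucocorticoid-induced protein that granulocytes and monocytes carry and that limits their recruitment. The 5-lipoxygenase activating protein, from Alox5ap, presents arachidonic acid to 5-lipoxygenase, the first step towards the leukotrienes. Clec4d and Clec4e encode a pair of C-type lectin receptors for microbial glycolipids, Axl a receptor tyrosine kinase that senses apoptotic cells through Gas6, and Arg2 the mitochondrial arginase. T cells are not known as a main source of lysozyme or of the leukotriene enzymes. In bulk RNA, more cells of a type and more RNA per cell cannot be told apart, and a ratio to the same tissue of B6 mice gives neither a level nor a check of the labelled cell type.

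Promoters of 7 of the 9 genes were found in RefSeq's set for GRCm38.p6; Alox5ap and Arg2 had no entry. Those of Lyz2 and Anxa1, which were among the 3 genes furthest above B6 in the marrow recipients, and of the neighbours Clec4d and Clec4e on chromosome 6, which did not move together, are shown as the 250 bases before the start of the gene, 5′ to 3′ in the gene's direction. Capitals mark the core of the PU.1 motif (GAGGAA, a factor of myeloid cells) and the C/EBP motif TTGCNNAA, searched on both strands.
Lyz2, chr10:117282273-117282522, minus strand: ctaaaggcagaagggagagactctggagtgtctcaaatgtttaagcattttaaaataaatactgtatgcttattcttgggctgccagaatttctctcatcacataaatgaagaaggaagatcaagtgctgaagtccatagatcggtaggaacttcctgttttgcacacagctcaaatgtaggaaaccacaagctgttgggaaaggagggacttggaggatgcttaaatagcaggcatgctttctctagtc
Anxa1, chr19:20390672-20390921, minus strand: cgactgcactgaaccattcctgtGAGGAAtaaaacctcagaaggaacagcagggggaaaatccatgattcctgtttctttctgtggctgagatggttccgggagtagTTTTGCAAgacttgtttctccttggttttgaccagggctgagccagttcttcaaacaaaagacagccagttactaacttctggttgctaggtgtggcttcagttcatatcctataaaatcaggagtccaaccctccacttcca
Clec4d, chr6:123261857-123262106, plus strand: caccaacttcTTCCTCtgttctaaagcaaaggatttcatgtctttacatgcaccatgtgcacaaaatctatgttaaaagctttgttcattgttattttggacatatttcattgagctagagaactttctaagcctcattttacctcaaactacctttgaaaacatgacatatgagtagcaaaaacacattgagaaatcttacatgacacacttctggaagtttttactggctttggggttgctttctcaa
Clec4e, chr6:123289872-123290121, minus strand: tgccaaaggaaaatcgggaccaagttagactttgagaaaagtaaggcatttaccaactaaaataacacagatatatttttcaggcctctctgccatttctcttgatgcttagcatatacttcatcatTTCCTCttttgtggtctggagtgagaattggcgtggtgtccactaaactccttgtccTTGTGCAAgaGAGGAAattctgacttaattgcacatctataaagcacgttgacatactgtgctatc
GAGGAA lay in 5 of the 7 windows (Cst3, Anxa1, Clec4d, Clec4e and Axl), against 23.3% of 32851 windows of the same length. TTGCNNAA lay in those of Anxa1 and Clec4e, against 9.56% of windows, and the TATA motif TATAAA in the same pair, against 12.4%. The AP-1 motif TGANTCA, in 6.75% of all windows, was in none of the 7, and the GC box GGGCGG, in 32.7%, was in those of Cst3, Cyba and Axl. The Lyz2 window held none of the 5 motifs. These are matches of letters and not binding sites.

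Each array was centred on its median, so that 0 stands for the middle of all features on that array. Without this step, the group medians lay 0.15 (NOD), 0.80 (NOD.H2h4), 0.18 (B6.NODIdd1,5 T cells), 0.46 (kidney), 0.23 (NODtoB6) and 0.76 (B6toNOD) lower on the log2 scale, and all changes are given relative to that shift. The median absolute deviation of an array ran from 0.289 (NOD, replicate 1) to 0.910 (B6toNOD, replicate 1), so the B6toNOD arrays were spread furthest. Probes with a value numbered 18837 to 20558 per array, and the 2 arrays of a group correlated at 0.51 to 0.76. The marrow transfer arrays were rounded in another way than the 8 strain arrays, and the labels do not state their dyes: their direction is likely, from channel 2 being B6 T cells as on the other arrays, and this difference in processing cannot be told apart from the groups. A gene is said to have risen or fallen where limma's adjusted p (Benjamini-Hochberg over all features tested) was below 0.05, errors of means and differences are standard errors of that fit, and n = 2 arrays per group throughout.

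In the marrow recipients, 6 of the 9 genes rose against B6 in both directions of transfer, and the others did not pass the test in either. The 6 were Lyz2, Cst3, Cyba, Anxa1, Alox5ap and Clec4e. In NODtoB6 the largest rise was that of Anxa1, 6.96-fold, followed by Lyz2, 5.93-fold, and Alox5ap, 4.75-fold. In B6toNOD the same 3 genes led, with Anxa1 27.6-fold, Alox5ap 12.3-fold and Lyz2 11.9-fold above B6. Of all features, 26.8% passed the test in NODtoB6 (13.8% higher, 13.1% lower) and 51.4% in B6toNOD (28.5% higher, 22.9% lower). Both comparisons share B6 T cells as the other channel. If the transfer arrays ran the other way round, the same values would be falls of the same size, with Anxa1 at -2.80 in NODtoB6 and -4.79 in B6toNOD, and the order of the sizes would stay. With arrays scaled to one spread the B6toNOD values were smaller, at 3.16 for Anxa1, 2.39 for Alox5ap, 2.36 for Lyz2, 1.41 for Clec4e, 1.16 for Cyba and 0.94 for Cst3, and all 6 still passed. In NOD T cells that had not been through a transfer, 4 of the 9 genes rose and none fell, against 12.2% of all features (9.79% higher, 2.46% lower). NOD.H2h4 and B6.NODIdd1,5 T cells went the other way for Lyz2 and Anxa1.

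**Figure D1:**
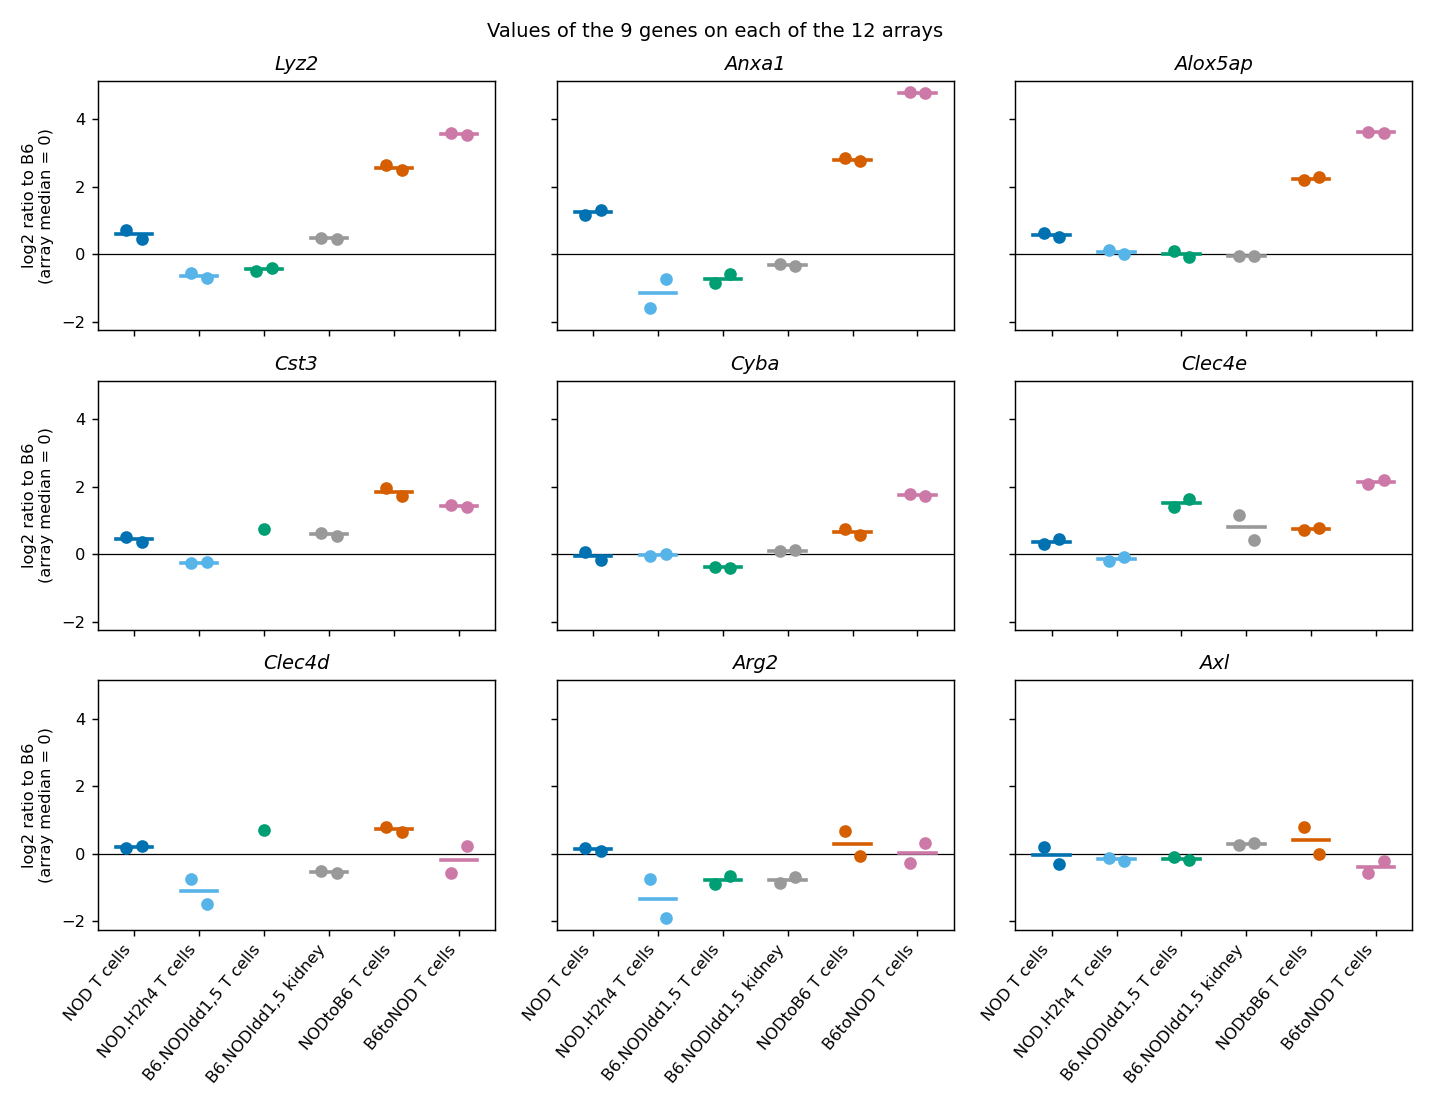
Centred log2 ratio to B6 (vertical axis, array median at 0) of each of the 9 genes on the 12 arrays, with 2 points per group. Lyz2, Anxa1 and Alox5ap lie highest in the B6toNOD arrays, at 3.60 and 3.54, 4.80 and 4.78, and 3.63 and 3.61, and the points of Axl and Arg2 scatter around or below 0.

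Lyz2 differed between 13 of the 15 pairs of groups by limma's test, as did Anxa1. Its centred log2 ratios in replicates 1 and 2 were 0.74 and 0.45 in NOD, -0.56 and -0.70 in NOD.H2h4, -0.48 and -0.40 in B6.NODIdd1,5 T cells and 0.50 and 0.45 in B6.NODIdd1,5 kidney. In NODtoB6 they were 2.65 and 2.49, and in B6toNOD 3.60 and 3.54. All 4 transfer arrays lay above all 8 others, and no NOD or kidney array overlapped with those of NOD.H2h4 or B6.NODIdd1,5 T cells. Against B6, Lyz2 rose in NODtoB6 (2.57 ± 0.09, adjusted p = 5.7e-06), in B6toNOD (3.57 ± 0.09, adjusted p = 1.0e-06), in NOD (0.59 ± 0.09, adjusted p = 0.0080) and in kidney (0.48 ± 0.09, adjusted p = 0.0059). It fell in NOD.H2h4 (-0.63 ± 0.09, adjusted p = 0.0012) and in B6.NODIdd1,5 T cells (-0.44 ± 0.09, adjusted p = 0.0097). From the highest group down the order was B6toNOD, NODtoB6, NOD, kidney, B6.NODIdd1,5 T cells and NOD.H2h4. Neighbours in that order differed by limma's test except NOD and kidney (difference 0.12, adjusted p = 0.60) and the last pair (difference 0.19, adjusted p = 0.28). The smaller calls depended on single arrays: the NOD value was 0.45 (adjusted p = 0.067) without NOD replicate 1, the T cell value -0.40 (adjusted p = 0.085) without B6.NODIdd1,5 T cell replicate 1, and the kidney value 0.45 (adjusted p = 0.083) and 0.50 (adjusted p = 0.057) without kidney replicate 1 or 2. As deposited the NOD value was 0.44 (adjusted p = 0.21) and the kidney value 0.02 (adjusted p = 0.94). With arrays scaled to one spread, the values of NOD.H2h4 (-0.54 (adjusted p = 0.059)), B6.NODIdd1,5 T cells (-0.49 (adjusted p = 0.078)) and kidney (0.47 (adjusted p = 0.089)) no longer passed.

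Cst3 rose in both recipients, and more in NODtoB6, unlike the other genes that rose. Its centred log2 ratios were 1.94 and 1.72 in NODtoB6 and 1.46 and 1.39 in B6toNOD. In NOD they were 0.50 and 0.37, in NOD.H2h4 -0.26 and -0.24 and in kidney 0.63 and 0.55. Of the B6.NODIdd1,5 T cell arrays only replicate 1 had a value, 0.73, so that group was not tested. After centring, the transfer arrays were again above all others, and both NOD.H2h4 arrays lay below 0. As deposited, B6toNOD replicate 2 (0.513) lay just below B6.NODIdd1,5 T cell replicate 1 (0.520). The rise was 1.83 ± 0.08, adjusted p = 5.3e-05 in NODtoB6, 1.42 ± 0.08, adjusted p = 3.2e-05 in B6toNOD, 0.43 ± 0.08, adjusted p = 0.023 in NOD and 0.59 ± 0.08, adjusted p = 0.0027 in kidney. NOD.H2h4 did not pass (-0.25 ± 0.08, adjusted p = 0.056), though without either NODtoB6 array it did (-0.25 (adjusted p = 0.039) in each case). The NOD call was lost as deposited, at 0.28 (adjusted p = 0.40), and without NOD replicate 1, at 0.37 (adjusted p = 0.17), or 2, at 0.50 (adjusted p = 0.14). Leaving out either NOD.H2h4 array (adjusted p = 0.051) or either kidney array (adjusted p = 0.054) lost it too, with the value unchanged at 0.43. In kidney the value as deposited was 0.13 (adjusted p = 0.52).

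The other lysosomal genes on the array, cathepsins (proteases) and their inhibitors, followed in part. Of the 23 genes listed for lysozymes, cystatins and cathepsins, 13 were on the array. Besides Lyz2 and Cst3, 5 of 11 tested rose and 1 fell in NODtoB6, where 13.8% of all features rose and 13.1% fell. In B6toNOD 6 of 10 rose and 1 fell, where 28.5% rose and 22.9% fell, and the medians in NODtoB6 and B6toNOD were 0.48 and 0.34 against all-feature medians of -0.01 and -0.04. Cathepsin O (Ctso) at 1.12 and cathepsin A (Ctsa) at 1.09 had the largest rises in NODtoB6, and cathepsin C (Ctsc), which activates the serine proteases of granulocytes, at 1.10 in B6toNOD (0.34, adjusted p = 0.10, as deposited). Cystatin B (Cstb), an intracellular cathepsin inhibitor, fell in B6toNOD by 1.99 on the log2 scale. As deposited, the NODtoB6 rises of cathepsin B (Ctsb, 0.27, adjusted p = 0.19) and cathepsin H (Ctsh, 0.55, adjusted p = 0.054) no longer passed. Ctsb in NODtoB6 was also lost with the running median subtracted (0.45, adjusted p = 0.070). The B6toNOD count depended on the scaling too. Over all 12 of the list tested there, 8 rose and 1 fell after centring, 2 rose and 5 fell as deposited, and 4 rose and 1 fell with arrays scaled to one spread. In NOD.H2h4 none of the 13 rose and 4 fell, against 15.4% of all features lower, the largest being cathepsin L (Ctsl) at -1.18. In NOD, where 9.79% of all features rose, 3 of 12 rose, Lyz2, Cst3 and cathepsin B (Ctsb, 0.57). As deposited, Ctsb was at 0.42 (adjusted p = 0.19) in NOD.

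After centring, Cyba did not pass the test in NOD or NOD.H2h4 and rose in both recipients. In NOD it read 0.05 and -0.18, in NOD.H2h4 -0.05 and 0.01, and in kidney 0.08 and 0.11. The B6.NODIdd1,5 T cell arrays gave -0.37 and -0.42, the NODtoB6 arrays 0.73 and 0.56 and the B6toNOD arrays 1.78 and 1.73. Only the B6.NODIdd1,5 T cells lay wholly below the other groups, and the B6toNOD arrays lay above both NODtoB6 arrays, which lay above the rest. The rise passed in B6toNOD (1.75 ± 0.08, adjusted p = 6.4e-06) and in NODtoB6 (0.65 ± 0.08, adjusted p = 0.0019), and the fall in B6.NODIdd1,5 T cells (-0.39 ± 0.08, adjusted p = 0.0095). As deposited, the NOD.H2h4 value was -0.82 (adjusted p = 0.0022) and the NODtoB6 value 0.41 (adjusted p = 0.075). Without B6.NODIdd1,5 T cell replicate 1 or 2, the T cell value was -0.42 (adjusted p = 0.052) or -0.37 (adjusted p = 0.074).

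Of the phagocyte oxidase list, 5 of 9 genes were on the array. In B6toNOD 4 of the 5 rose, where 28.5% of all features did: Cyba, its catalytic partner gp91phox (Cybb, 1.63), and the small GTPases Rac2 (1.79), the form of blood cells, and Rac1 (0.86; 0.10, adjusted p = 0.49, as deposited). In NODtoB6, where 13.8% of all features rose, 3 of the 5 rose, Cyba, Rac1 (0.59) and Rac2 (0.58), and Cybb, at 1.29, did not pass. As deposited none of the 5 passed in NODtoB6 and 2 did in B6toNOD, and Cybb in B6toNOD no longer passed as deposited (0.87, adjusted p = 0.13) or with arrays scaled to one spread (1.07, adjusted p = 0.11). In NOD Rac2 alone rose (0.44; 0.29, adjusted p = 0.34, as deposited, and 0.27, adjusted p = 0.057, with the running median subtracted), and in B6.NODIdd1,5 T cells Cyba and Rac2 (-0.70) fell.

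Anxa1 had the widest range of the 9 genes. Its centred log2 ratios were 1.17 and 1.33 in NOD, -1.57 and -0.72 in NOD.H2h4, -0.84 and -0.59 in B6.NODIdd1,5 T cells and -0.27 and -0.34 in kidney. In NODtoB6 they were 2.84 and 2.75 and in B6toNOD 4.80 and 4.78. The NOD and transfer arrays lay above 0 and the other 6 arrays below it, and both B6toNOD arrays lay above both NODtoB6 arrays. It rose in NODtoB6 (2.80 ± 0.18, adjusted p = 9.0e-05), in B6toNOD (4.79 ± 0.18, adjusted p = 3.2e-06) and in NOD (1.25 ± 0.18, adjusted p = 0.0069). It fell in NOD.H2h4 (-1.15 ± 0.18, adjusted p = 0.0019) and in B6.NODIdd1,5 T cells (-0.71 ± 0.18, adjusted p = 0.021), and kidney did not pass after centring (-0.31 ± 0.18, adjusted p = 0.24). As deposited the kidney value was -0.76 and passed (adjusted p = 0.030). Kidney also passed when either NOD.H2h4 array was left out, with the value unchanged at -0.31. From the highest down the order was B6toNOD, NODtoB6, NOD, kidney, B6.NODIdd1,5 T cells and NOD.H2h4, and limma's test found a difference between neighbours down to NOD and kidney (1.56, adjusted p = 0.0061). Kidney and B6.NODIdd1,5 T cells (0.41, adjusted p = 0.31) and B6.NODIdd1,5 T cells and NOD.H2h4 (0.43, adjusted p = 0.23) did not pass, while NOD.H2h4 minus kidney, at -0.84, did (adjusted p = 0.049). The NOD call was lost as deposited, at 1.10 (adjusted p = 0.062), and without NOD replicate 2, at 1.17 (adjusted p = 0.11). The T cell call was lost without B6.NODIdd1,5 T cell replicate 1, at -0.59 (adjusted p = 0.17), or 2, at -0.84 (adjusted p = 0.065). In NOD.H2h4 the arrays differed most, and without replicate 1 the value was -0.72 (adjusted p = 0.010).

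In the recipients, annexins A2 and A6 rose beside Anxa1 in NODtoB6, and 4 further genes of its list rose in B6toNOD. The list of annexins, formyl peptide receptors and glucocorticoid mediators had 10 of 19 genes on the array. In NODtoB6, 2 of the 9 besides Anxa1 rose, where 13.8% of all features did, annexin A2 (Anxa2, 1.92), a plasminogen and membrane-binding protein, and annexin A6 (Anxa6, 0.83), and annexin A4 (Anxa4, -0.38) fell, a call lost with the arrays centred on named genes (adjusted p = 0.056), with arrays scaled to one spread (adjusted p = 0.064) and with the running median subtracted (-0.25, adjusted p = 0.16). In B6toNOD, 4 of 8 besides Anxa1 rose and none fell, where 28.5% of all features rose, led by Anxa2 (2.13) and Anxa3 (1.59). As deposited, Anxa3 in B6toNOD was at 0.82 (adjusted p = 0.065) and 2 of 9 rose and 1 fell. The glucocorticoid receptor gene Nr3c1 did not pass in either recipient, at 0.22 and 0.33. In NOD.H2h4, 5 of the 10 fell and 1 rose, where 15.4% of all features fell, so that Anxa1, Anxa6 (-0.63) and Tsc22d3 (-0.75), a gene induced by glucocorticoids, were lower there. The falls of Anxa2 and Anxa7 were lost with the arrays centred on named genes (adjusted p = 0.11 and 0.073) or scaled to one spread (adjusted p = 0.19 and 0.055). The 1 rise, Anxa4 (0.55), was at -0.25 (adjusted p = 0.16) as deposited and 0.34 (adjusted p = 0.051) with the running median subtracted.

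After centring, Alox5ap was close to B6 in the congenic strain and in NOD.H2h4, and rose in NOD and both recipients. It read 0.63 and 0.52 in NOD, 0.13 and 0.02 in NOD.H2h4, 0.10 and -0.08 in B6.NODIdd1,5 T cells and -0.06 and -0.05 in kidney. The NODtoB6 arrays gave 2.21 and 2.29 and the B6toNOD arrays 3.63 and 3.61. The 2 arrays of a group differed by at most 0.18 in each group, so the 3 levels (B6toNOD, NODtoB6, NOD) did not overlap with each other or with the rest. The rises were 3.62 ± 0.07, adjusted p = 6.6e-07 in B6toNOD, 2.25 ± 0.07, adjusted p = 4.9e-06 in NODtoB6 and 0.57 ± 0.07, adjusted p = 0.0051 in NOD. In NOD the call was lost as deposited, at 0.42 (adjusted p = 0.18), and without NOD replicate 2, at 0.63 (adjusted p = 0.056). In NOD.H2h4 the centred value of 0.07 (adjusted p = 0.46) became -0.73 (adjusted p = 0.0027) as deposited. In kidney the centred value of -0.06 (adjusted p = 0.61) became -0.51 (adjusted p = 0.023) as deposited.

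Other genes of the pathway of Alox5ap were called against B6 in the recipients and in NOD.H2h4. Between the recipients, 4 of the 5 list genes tested were lower and 1 higher in NODtoB6, Alox5ap among the lower. Of all features, 22.2% were lower and 13.8% higher there. Other scalings were not tried for that count, and NOD.H2h4 was not compared with the recipients for the other genes. Of 22 genes listed for the leukotriene and eicosanoid pathway 7 were on the array, among them neither 5-lipoxygenase itself nor the leukotriene receptors. In B6toNOD, leukotriene C4 synthase (Ltc4s, 2.88), leukotriene A4 hydrolase (Lta4h, 1.85), which makes leukotriene B4, and 12-lipoxygenase (Alox12, 1.23) rose, and the phospholipase that frees arachidonic acid (Pla2g4a, -0.65) fell. With Alox5ap this made 4 of 6 tested higher and 1 lower (28.5% and 22.9% of all features), with a median of 1.54 over the 6. In NODtoB6, besides Alox5ap, coactosin-like protein (Cotl1, 0.87), a binding partner of 5-lipoxygenase, Lta4h (0.60) and Pla2g4a (0.32) rose, so that 4 of 6 were higher and none lower (13.8% and 13.1% of all features); Lta4h (0.37, adjusted p = 0.24) and Pla2g4a (0.09, adjusted p = 0.60) no longer passed as deposited. Ltc4s there was at 0.69 and did not pass. In NOD.H2h4, Ltc4s (-2.47), Lta4h (-1.01) and Pla2g4a (-0.85) fell, and Cotl1 (0.66) and Alox12 (0.27) rose after centring, neither of which did as deposited (-0.14 and -0.53). In NOD, Cotl1 (0.77) was the 1 other gene of the 7 that rose, and did not pass as deposited (0.62, adjusted p = 0.11).

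**Figure D2:**
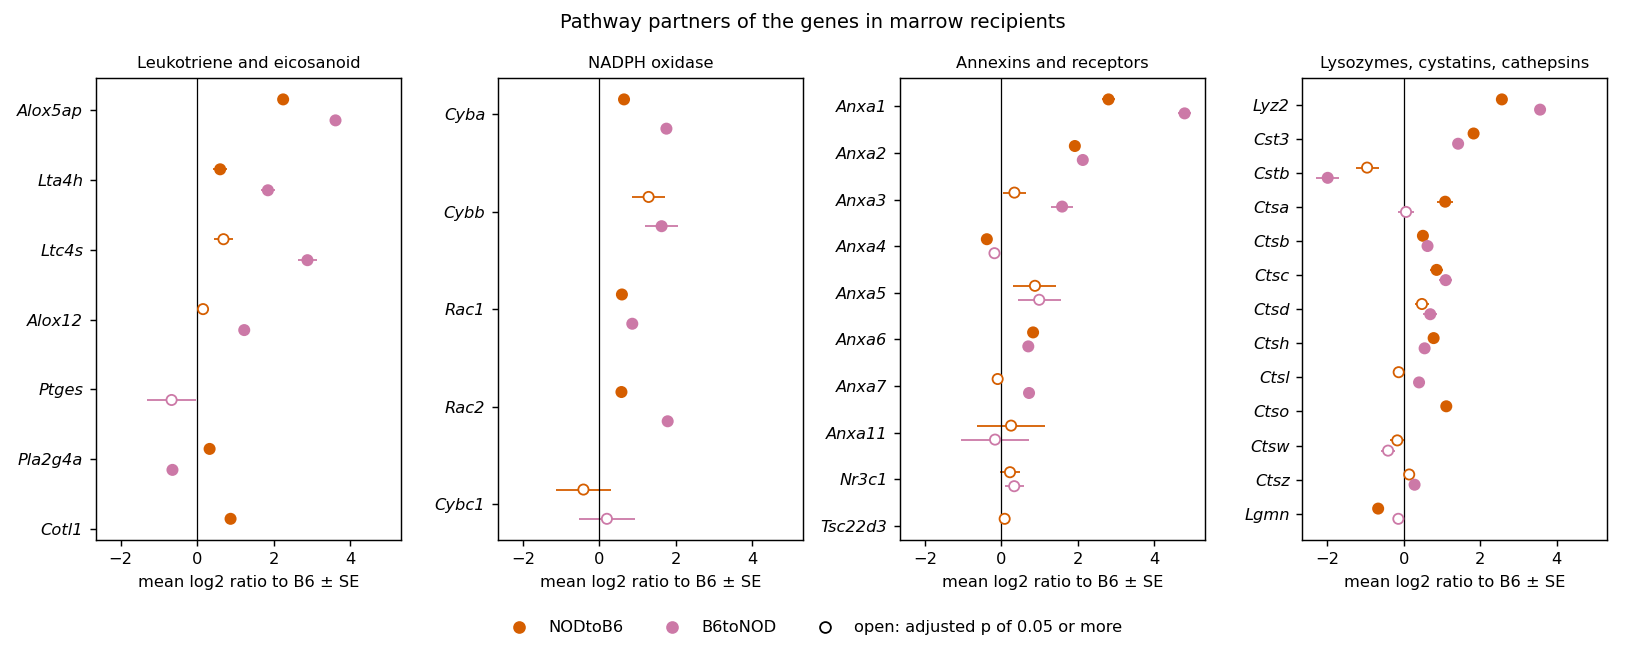
Mean log2 ratio to B6 (horizontal axis, ± SE of limma's fit, n = 2 arrays) of the genes on the array from 4 lists, in NODtoB6 and B6toNOD, with open points where the adjusted p was 0.05 or more. Ltc4s stands at 2.88 in B6toNOD and 0.69, open, in NODtoB6, and Anxa2 at 1.92 and 2.13 in NODtoB6 and B6toNOD.

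Clec4e was the member furthest above B6 in the congenic mice. Its centred log2 ratios were 1.38 and 1.65 in B6.NODIdd1,5 T cells, 1.16 and 0.43 in kidney, 0.29 and 0.45 in NOD and -0.20 and -0.07 in NOD.H2h4. In NODtoB6 they were 0.71 and 0.77 and in B6toNOD 2.07 and 2.18. Both B6toNOD arrays lay above all others and the B6.NODIdd1,5 T cell arrays came next, with only the NOD.H2h4 arrays below 0. It rose in B6.NODIdd1,5 T cells (1.51 ± 0.16, adjusted p = 0.00053), in kidney (0.80 ± 0.16, adjusted p = 0.0078), in NODtoB6 (0.74 ± 0.16, adjusted p = 0.015) and in B6toNOD (2.13 ± 0.16, adjusted p = 3.9e-05). From the highest down the order was B6toNOD, B6.NODIdd1,5 T cells, kidney, NODtoB6, NOD and NOD.H2h4, and no 2 neighbours in it differed by limma's test. Closest to the threshold were the first pair (difference 0.61) and the second (0.72), each with an adjusted p of 0.064. Kidney minus T cells, the second pair turned, passed with arrays scaled to one spread, at -0.91 (adjusted p = 0.031). The kidney arrays differed most, and without replicate 1 the kidney value was 0.43 (adjusted p = 0.087); as deposited it was 0.34 (adjusted p = 0.22). In NODtoB6 the call was lost as deposited, at 0.51 (adjusted p = 0.10), and without NODtoB6 replicate 1, at 0.77 (adjusted p = 0.075), or 2, at 0.71 (adjusted p = 0.11).

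Clec4d, its neighbour, followed another order. It read 0.17 and 0.23 in NOD, -0.74 and -1.48 in NOD.H2h4, -0.50 and -0.57 in kidney, 0.80 and 0.64 in NODtoB6 and -0.58 and 0.23 in B6toNOD. The single B6.NODIdd1,5 T cell array with a value, replicate 1, gave 0.69, so that group was not tested. The 2 B6toNOD arrays lay on either side of 0. Clec4d fell in NOD.H2h4 (-1.11 ± 0.23, adjusted p = 0.0098), a call that was lost without NOD.H2h4 replicate 2, at -0.74 (adjusted p = 0.12). NODtoB6, at 0.72 ± 0.23, adjusted p = 0.063, missed the threshold, and passed without either B6toNOD array (adjusted p = 0.028). B6toNOD was at -0.17 after centring (adjusted p = 0.56) and at -0.93 (adjusted p = 0.0055) as deposited.

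The rest of the C-type lectin list, 6 of 19 genes on the array with both members, showed no common direction. In NODtoB6 2 of the 4 others rose, where 13.8% of all features did. They were Clec1b (3.06), a receptor of platelets and myeloid cells, and the Fc receptor gamma chain (Fcer1g, 0.85), the signalling partner of both Clec4d and Clec4e. As deposited, Fcer1g was at 0.62 (adjusted p = 0.070). In B6toNOD Fcer1g was at 0.43 and did not pass, and Clec10a, a galactose-binding lectin of macrophages and dendritic cells, fell by 2.23. In NOD.H2h4 Fcer1g (0.71) and Clec10a (0.63) rose after centring only, and Clec1b (-0.87) fell, a call lost with arrays scaled to one spread (-0.75, adjusted p = 0.12) and with the running median subtracted (-0.31, adjusted p = 0.40). In B6.NODIdd1,5 T cells Clec1b (0.80) rose and Bcl10 (-0.51), an adaptor of the pathway, fell. The Clec1b call was lost as deposited (0.62, adjusted p = 0.054), with arrays scaled to one spread (0.89, adjusted p = 0.074) and with the running median subtracted (0.43, adjusted p = 0.27), and that of Bcl10 with the arrays centred on named genes (-0.44, adjusted p = 0.067).

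Axl passed the test in none of the 10 comparisons. The arrays read 0.21 and -0.31 in NOD, -0.11 and -0.22 in NOD.H2h4, -0.10 and -0.19 in B6.NODIdd1,5 T cells and 0.25 and 0.32 in kidney. In NODtoB6 they read 0.79 and 0.01 and in B6toNOD -0.56 and -0.23. Both kidney arrays lay above all NOD.H2h4, B6.NODIdd1,5 T cell and B6toNOD arrays, and NODtoB6 replicate 1 was the highest array. The kidney mean was 0.29 ± 0.20, adjusted p = 0.31, the NODtoB6 mean 0.40 ± 0.20, adjusted p = 0.17 and the B6toNOD mean -0.40 ± 0.20, adjusted p = 0.13. Without NODtoB6 replicate 2 the NODtoB6 value was 0.79 (adjusted p = 0.046) and the NODtoB6 minus B6toNOD difference 1.18 (adjusted p = 0.014). As deposited, 3 values passed: B6toNOD at -1.16 (adjusted p = 0.0019), NOD.H2h4 at -0.96 (adjusted p = 0.0051) and NODtoB6 minus B6toNOD at 1.32 (adjusted p = 0.012). Of 13 genes listed for the TAM receptors (Tyro3, Axl and Mertk), their ligands and the uptake of apoptotic cells, 8 were on the array. None of the 8 passed in NODtoB6, NOD or NOD.H2h4 after centring, where 26.8%, 12.2% and 39.5% of all features did. In B6toNOD the ligand Gas6 (-2.48), the receptor Tyro3 (-1.02) and stabilin 1 (Stab1, -0.55) fell, 3 of 7 tested, where 22.9% of all features fell. With arrays scaled to one spread, Tyro3 (-0.67, adjusted p = 0.070) and Stab1 (-0.36, adjusted p = 0.099) no longer passed. Gas6 also fell in B6.NODIdd1,5 T cells (-1.24), and Mertk in kidney (-0.82). The Mertk call was lost with the arrays centred on named genes (-0.74, adjusted p = 0.057), scaled to one spread (-0.81, adjusted p = 0.056) or with the running median subtracted (-0.58, adjusted p = 0.13).

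Arg2 was lower than B6 on all 6 arrays of NOD.H2h4 and of the B6.NODIdd1,5 mice. Its centred log2 ratios were -0.76 and -1.91 in NOD.H2h4, -0.88 and -0.67 in B6.NODIdd1,5 T cells and -0.87 and -0.69 in kidney. In NOD they were 0.17 and 0.09, in NODtoB6 0.67 and -0.06 and in B6toNOD -0.26 and 0.33. After centring, none of these 6 arrays overlapped with the 6 of the other groups, but the 2 NOD.H2h4 arrays were far apart. As deposited, B6toNOD replicate 1 (-0.905) lay below B6.NODIdd1,5 T cell replicate 2 (-0.806). Arg2 fell in NOD.H2h4 (-1.33 ± 0.28, adjusted p = 0.0083), and without NOD.H2h4 replicate 2 the value was -0.76 (adjusted p = 0.11). B6.NODIdd1,5 T cells, at -0.77 ± 0.28, adjusted p = 0.080, and kidney, at -0.78 ± 0.28, adjusted p = 0.073, did not pass after centring. Both passed as deposited, at -0.95 (adjusted p = 0.028) in the T cells and -1.24 (adjusted p = 0.0099) in kidney. The T cells also passed with arrays scaled to one spread (-0.86, adjusted p = 0.041), and kidney with the running median subtracted (-0.90, adjusted p = 0.041). Without either NOD.H2h4 array both passed too, with the values unchanged. In B6toNOD the centred mean was 0.03, and the deposited mean -0.73 (adjusted p = 0.034).

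Of 21 genes listed for arginine and polyamine metabolism 11 were on the array. In NOD.H2h4, 8 of these fell, Arg2 among them, 1 rose and 2 did not pass, with a median of -0.42, where 15.4% of all features fell. Only 3 fell with arrays scaled to one spread, and with the arrays centred on named genes 4. Spermidine synthase (Srm) fell by 0.91 and the arginine transporter Slc7a1 by 0.85, and arginine:glycine amidinotransferase (Gatm), which uses arginine to make creatine, was the 1 gene that rose (1.04; 0.24, adjusted p = 0.18, as deposited). Scaled to one spread, Srm was at -0.79 (adjusted p = 0.052) and Slc7a1 at -0.73 (adjusted p = 0.063), and with the running median subtracted Slc7a1 was at -0.32 (adjusted p = 0.37). In the recipients the list was mixed: 5 rose and 3 fell of 11 in NODtoB6 (13.8% and 13.1% of all features), and 3 rose and 1 fell of 9 in B6toNOD (28.5% and 22.9%). The polyamine acetyltransferase Sat1 rose in both, at 0.98 and 2.28, and Srm fell in NODtoB6 (-1.28). The NODtoB6 count of rises depended on centring. As deposited, the rises there of Oat (0.33, adjusted p = 0.17) and Gatm (0.23, adjusted p = 0.30) no longer passed. Nor did those of Oaz1 (0.21, adjusted p = 0.18) and Azin1 (0.12, adjusted p = 0.61).

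NOD.H2h4 and NOD share their background and differ at the MHC, and 6 of the 9 genes were lower in NOD.H2h4 than in NOD by limma's test of the difference, against 18.2% of all features (12% higher, 6.22% lower). The differences were -1.22 ± 0.13, adjusted p = 0.0023 for Lyz2 and -2.40 ± 0.25, adjusted p = 0.0023 for Anxa1. Cst3 (-0.68 ± 0.12, adjusted p = 0.013), Alox5ap (-0.50 ± 0.10, adjusted p = 0.018), Clec4d (-1.31 ± 0.33, adjusted p = 0.039) and Arg2 (-1.46 ± 0.40, adjusted p = 0.045) were the other 4. Cyba, Clec4e and Axl did not pass, at 0.04, -0.51 and -0.12. The Lyz2 and Anxa1 calls were kept under all 21 alternatives, and those of the other 4 were not. For Cst3 the adjusted p was 0.062 without NOD replicate 1, 0.072 without NOD.H2h4 replicate 1 and 0.069 without replicate 2, and with the running median subtracted the difference was -0.31 (adjusted p = 0.098). The Alox5ap difference ran from -0.44 without NOD replicate 1 to -0.55 without NOD replicate 2, and leaving out either array of either group lost the call (adjusted p from 0.052 to 0.11). Clec4d lost its call without any 1 of the NOD, NOD.H2h4, kidney or NODtoB6 arrays (adjusted p up to 0.16). Arg2 lost it without any 1 of the NOD, B6.NODIdd1,5 T cell or kidney arrays or NOD.H2h4 replicate 2 (adjusted p up to 0.19, with the difference at -0.89 there). Clec4d was also lost with the running median subtracted (-0.96, adjusted p = 0.089), Arg2 with the arrays centred on named genes (-1.37, adjusted p = 0.050) or scaled to one spread (-1.39, adjusted p = 0.051), and both on the 10 spleen arrays (adjusted p = 0.073 and 0.076) and with the replicate block (adjusted p = 0.065 and 0.063).

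B6.NODIdd1,5 T cells carry NOD intervals on B6, and 7 of the 9 genes could be compared with NOD itself. Of these, 3 were lower and 1 higher, against 24.3% of all features (9.41% higher, 14.9% lower). Lyz2 (-1.03 ± 0.13, adjusted p = 0.0017), Anxa1 (-1.96 ± 0.25, adjusted p = 0.0020) and Alox5ap (-0.56 ± 0.10, adjusted p = 0.0088) were lower and Clec4e (1.15 ± 0.23, adjusted p = 0.011) was higher. The Clec4e call was lost without NOD replicate 1, at 1.07 (adjusted p = 0.059), or 2, at 1.22 (adjusted p = 0.051), and that of Alox5ap as deposited, at -0.59 (adjusted p = 0.078). Against B6, 4 of 7 passed in these T cells, 1 higher and 3 lower (30.3% of all features, 14.4% higher and 15.9% lower), and in NOD.H2h4 4 of 9, all lower (39.5%, 24.1% higher and 15.4% lower).

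The kidney cells of the same congenic strain, each against B6 kidney, had 3 of 9 genes higher and none lower, against 33.5% of all features (22.4% higher, 11.1% lower). Between kidney and T cells, 2 of 7 genes differed, both higher in kidney, against 21% of all features (14.1% higher, 6.9% lower). Lyz2 went opposite ways, with a difference of 0.91 ± 0.13, adjusted p = 0.0027, and Cyba differed by 0.49 ± 0.11, adjusted p = 0.021. The Cyba call was lost without any 1 of the 4 arrays of the strain, with adjusted p from 0.055 (without T cell replicate 1) to 0.12 (without kidney replicate 2), and with arrays scaled to one spread (0.54, adjusted p = 0.051). Clec4e, higher than B6 in both, differed by -0.72 ± 0.23, adjusted p = 0.064, and by -1.09 (adjusted p = 0.013) without kidney replicate 1. These are differences of ratios, and say nothing of the levels in the 2 tissues.

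The reciprocal transfers differed from each other in 6 of the 9 genes, with 5 lower and 1 higher in NODtoB6 than in B6toNOD, against 36% of all features (13.8% higher, 22.2% lower). Lower were Anxa1 (-1.99 ± 0.25, adjusted p = 0.00088), Clec4e (-1.38 ± 0.23, adjusted p = 0.0028), Alox5ap (-1.37 ± 0.10, adjusted p = 0.00013), Cyba (-1.11 ± 0.11, adjusted p = 0.00036) and Lyz2 (-0.999 ± 0.13, adjusted p = 0.00090). Cst3 was higher (0.40 ± 0.12, adjusted p = 0.039). Clec4d (0.89 ± 0.33, adjusted p = 0.077), Axl (0.79 ± 0.28, adjusted p = 0.060) and Arg2 (0.27 ± 0.40, adjusted p = 0.64) did not pass, though Clec4d did without B6toNOD replicate 2, at 1.30 (adjusted p = 0.021). Most of these differences depended on the scaling, and the B6toNOD arrays had the widest spread. With arrays scaled to one spread, Lyz2 was at 0.57 (adjusted p = 0.16), Anxa1 at 0.021 (adjusted p = 0.97) and Alox5ap at 0.16 (adjusted p = 0.53), all 3 turned. Under that scaling Cst3 (1.15 (adjusted p = 0.011)) and Clec4d (0.94 (adjusted p = 0.047)) were the 2 that passed, both higher in NODtoB6. As deposited, Lyz2 was at -0.47 (adjusted p = 0.12) and Cyba at -0.58 (adjusted p = 0.058), and with arrays scaled to one spread Cyba was at -0.42 (adjusted p = 0.097) and Clec4e at -0.56 (adjusted p = 0.12). The Cst3 difference kept its direction under every scaling tried but lost its call without any 1 of 9 arrays, namely those of NOD, NOD.H2h4 and kidney, NODtoB6 replicate 1 and both of B6toNOD, with values from 0.29 (adjusted p = 0.14, without NODtoB6 replicate 1) to 0.44 (adjusted p = 0.062, without B6toNOD replicate 1). If the NODtoB6 arrays ran the other way round, Cst3 would be at -3.25. If both transfers ran the other way round, each difference would change its sign and keep its size.

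**Figure D3:**
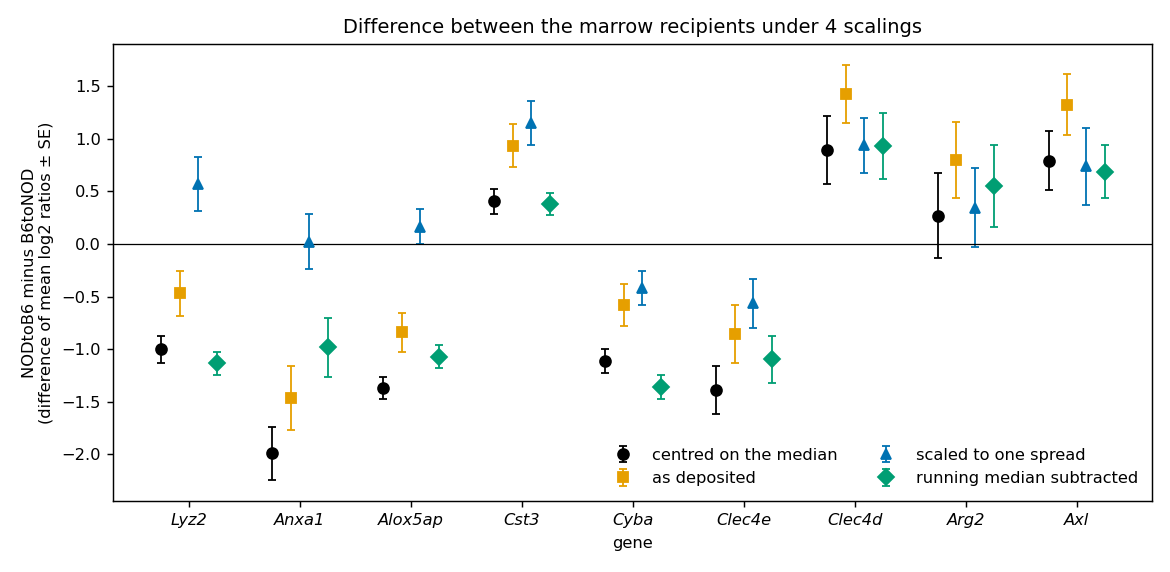
Difference of the mean log2 ratios, NODtoB6 minus B6toNOD (vertical axis, ± SE of limma's fit), for the 9 genes under 4 scalings. The scaled points of Lyz2, Anxa1 and Alox5ap lie at 0.57, 0.021 and 0.16, above 0, while their centred points lie at -0.999, -1.99 and -1.37.

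Against NOD T cells that were not transferred, 6 of the 9 genes were higher in B6toNOD and 5 in NODtoB6. Relative to B6toNOD, NOD was lower for the same 6 genes that rose over B6: the log2 differences, NOD minus B6toNOD, were -3.54 for Anxa1, -3.04 for Alox5ap, -2.98 for Lyz2, -1.82 for Cyba, -1.76 for Clec4e and -0.99 for Cst3 (limma, adjusted p from 1.1e-05 to 0.0012), where 36% of all features passed (16.2% higher, 19.8% lower). Relative to NODtoB6, whose marrow was of NOD origin, NOD was lower for 5 of them, with differences of -1.98 for Lyz2, -1.68 for Alox5ap, -1.55 for Anxa1, -1.40 for Cst3 and -0.71 for Cyba (limma, adjusted p from 0.00042 to 0.0077), where 19.1% of all features passed (11.6% higher, 7.52% lower). Clec4d, Axl and Arg2 passed in neither, at 0.37, 0.35 and 0.10 for NOD minus B6toNOD and -0.52, -0.44 and -0.17 for NOD minus NODtoB6, nor did Clec4e against NODtoB6 (-0.37). As deposited, Cyba against NODtoB6 (-0.63, adjusted p = 0.095) and Cst3 against B6toNOD (-0.38, adjusted p = 0.18) were lost, and Clec4d (0.98, adjusted p = 0.030) and Axl (0.96, adjusted p = 0.032) passed as higher in NOD than in B6toNOD. The Cst3 value against B6toNOD was -0.13 (adjusted p = 0.70) with arrays scaled to one spread. These values rest on the likely direction of the transfer arrays: with the arrays turned, 6 genes were higher in NOD than in either recipient, with Anxa1 at 4.05 against NODtoB6 and 6.04 against B6toNOD.

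The mean of the neutrophil markers was also above B6 in both recipients, but did not follow these genes in every group. Of 18 neutrophil markers 5 were on the array, and the mean of the 4 with values on every array ran from 1.03 to 1.09 in NOD, 1.41 to 1.42 in NOD.H2h4, -0.51 to -0.42 in B6.NODIdd1,5 T cells, -0.13 to 0.18 in kidney, 1.57 to 1.71 in NODtoB6 and 3.60 to 3.69 in B6toNOD. S100a9, a calcium-binding protein of granulocytes and monocytes, was at 3.05 in NODtoB6 and 6.68 in B6toNOD, lipocalin 2 (Lcn2) at 2.95 and 5.72, and lactoferrin (Ltf) at 0.78 and 2.46. Each of these rose, while the receptor Csf3r fell in both, at -0.22 and -0.28, the latter not with arrays scaled to one spread (-0.19, adjusted p = 0.079) or the running median subtracted (-0.14, adjusted p = 0.12). In NOD.H2h4, where Lyz2 and Anxa1 fell, S100a9 (2.33) and Lcn2 (2.05) rose. The part of such cells in the values of the 9 genes was not tested.

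The monocyte and macrophage markers moved less. Of 33, 12 were on the array, and the mean of the 9 with values on every array ran from 0.54 to 0.56 in NODtoB6, 0.19 to 0.27 in B6toNOD, 0.00 to 0.17 in NOD, -0.07 to -0.03 in NOD.H2h4, -0.35 to 0.49 in B6.NODIdd1,5 T cells and 0.03 to 0.09 in kidney. In NODtoB6, 3 of 12 rose and none fell, where 13.8% of all features rose and 13.1% fell. The 3 were perforin 2 (Mpeg1, 1.92), Fcer1g (0.85) and the Fc receptor Fcgr3 (0.84). As deposited, Fcgr3 was at 0.61 (adjusted p = 0.060), and 1 gene of the list rose and 1 fell. In B6toNOD, 3 of 10 rose, Fcgr3 (1.35), Fcgr1 (1.10) and complement C1qb (0.43), and the scavenger receptor Cd163 (-0.53) fell. Of all features, 28.5% rose and 22.9% fell there, so the count of rises was near that share. As deposited 1 rose and 4 fell, with C1qb at -0.33 (adjusted p = 0.085) and Fcgr1 at 0.34 (adjusted p = 0.057). Scaled to one spread, C1qb (0.29, adjusted p = 0.18) and Cd163 (-0.35, adjusted p = 0.10) no longer passed. None of the 12 passed in NOD, where 12.2% of all features did. Of 20 T cell markers 6 were on the array and only 2 had values on every array, with a mean of 0.21 to 0.37 in NODtoB6 and 0.57 to 1.25 in B6toNOD. The deposited ratios do not show which markers are absent, and the part of these cells was not tested.

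**Figure D4:**
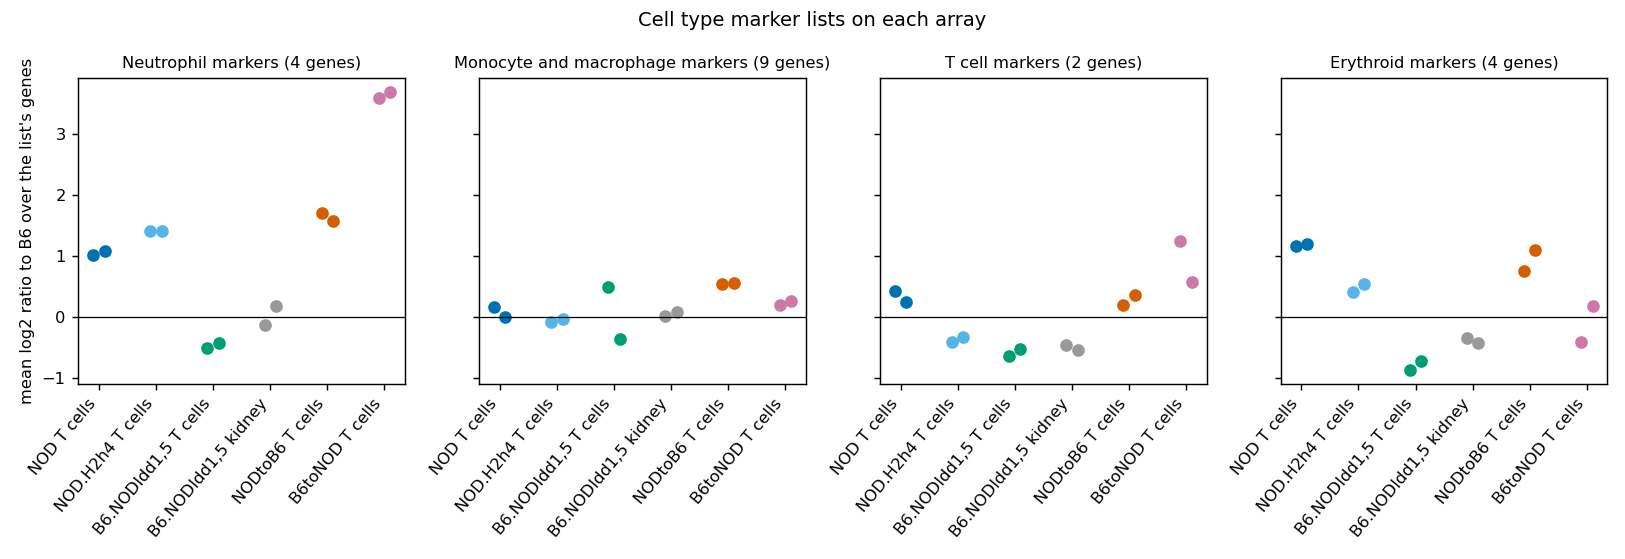
Mean log2 ratio to B6 (vertical axis) over the marker genes with a value on all 12 arrays, for neutrophils, monocytes and macrophages, T cells and erythroid cells, with 2 points per group. The neutrophil mean lies at 3.60 and 3.69 on the B6toNOD arrays and at -0.51 and -0.42 on the B6.NODIdd1,5 T cell arrays.

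Across the 12 arrays, Lyz2, Cyba, Anxa1 and Alox5ap ran together, with Pearson's r of 0.91 to 0.97 between each pair. This description rests largely on the 4 transfer arrays. The arrays also share the way they were centred and B6 as the other channel, B6 kidney on the kidney arrays. The genes most like each member, among 6915 with values on all arrays, were Clic1 (r = 0.98) and Cfl1 (0.98) for Lyz2, Clic1 (0.99) and Cyrib (0.98) for Anxa1, Eif3d (0.98) and S100a6 (0.98) for Alox5ap and Gss (0.997) and Ifitm3 (0.988) for Cyba. Likeness was lower for Clec4e, with Pex6 (0.92) and Ube2d3 (0.91), for Arg2, with Sbno1 (0.89) and Carhsp1 (0.88), and for Axl, with Papola (0.85) and Dennd10 (0.82). Cst3 and Clec4d lacked a value on 1 array and were not compared.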

How the data were processed

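RNA was hybridised against B6 RNA on 12 two-colour cDNA arrays. The authors deposited log2 ratios per probe, with scanner, background and normalization steps not given in the sources used here; per the labels the 8 strain arrays carry B6 in Cy3. Of the strain arrays' values, 99.8% or more fell on the step that a ratio rounded to 0.001 would give (tolerance 0.01 of a step), against 7.34% to 13.9% on the transfer arrays. In all, 146 values at a ratio of 100000 were treated as missing.

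Probes with 1 symbol (13033; 312 had several and 7391 none) were averaged per gene, unnamed probes were kept, giving 16411 features, and each array was centred on its feature median. Symbols came from the platform annotation, and 12850 of those probes had a symbol found in RefSeq. Groups were fitted together on 12 arrays with limma 3.58.1 (R 4.3.3; lmFit and eBayes, 6 residual degrees of freedom), with Benjamini-Hochberg adjustment and a threshold of 0.05; the script was tested on simulated data. A group against 0 leaves out the spread of the B6 channel. The number of arrays limits the precision, and no depth applies. Named were all 9 genes and, from each list, up to 3 genes past the threshold with the largest values per comparison described. Some further list genes were named where another scaling ended their call. The genes and the 15 lists were chosen with earlier results of these data known. Alternatives were centring, scaling, a running median along the probe order, capped values, probe medians, missing values, the kidney arrays, the replicate block, each array left out and, added after seeing the data, the transfer arrays turned and the same set for NOD against the recipients. Figures were drawn with matplotlib 3.10.9.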

Additional observations from a re-analysis of the deposited data

Results flagged for a closer look

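The effect of the B6.NODIdd1,5 genotype differed between kidney cells and spleen T cells in 2 of the 7 genes tested. This is limma's test of the difference itself, which 21% of all features passed (14.1% higher, 6.9% lower). For Lyz2, the ratio to B6 was higher in kidney by 0.91 on the log2 scale (adjusted p = 0.0027), with both kidney arrays above 0 and both T cell arrays below it; as deposited the difference was 0.63 (adjusted p = 0.11). For Cyba, the ratio was higher in kidney by 0.49 (adjusted p = 0.021), with the kidney arrays near 0 and both T cell arrays below it. As deposited the difference was 0.21 (adjusted p = 0.62), and with arrays scaled to one spread 0.54 (adjusted p = 0.051). The Cyba call also depended on each array of the strain, as given above.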

How the results depend on the processing

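Each group has 2 arrays, B6 appears only as the other channel, and the arrays' depth cannot be read from ratios. Of 45 calls over the 10 comparisons, 16 were kept under all of the 21 alternatives that tested them, among them all 6 in B6toNOD, 4 of 6 in NODtoB6, and none in NOD, in kidney, between kidney and T cells or between the recipients. As deposited, without centring, members called were 0 in NOD (main 4), 9 in NOD.H2h4 (0 higher, 9 lower; main 4) and 0 between kidney and T cells (main 2). Alox5ap in NOD.H2h4 turned to -0.73 and Arg2 in B6toNOD to -0.73. With the running median subtracted, 2 were called in NOD.H2h4, where Lyz2 (-0.22, adjusted p = 0.053) and Clec4d (-0.64, adjusted p = 0.065) were lost. With arrays scaled to one spread, 2 were called between the recipients (2 higher, 0 lower; main 6), with Lyz2 at 0.57, Anxa1 at 0.021 and Alox5ap at 0.16 turned. With the NODtoB6 arrays turned, Cst3 was at -3.25 and 6 were called, all lower. The other orientations were chosen after seeing the data. With the B6toNOD arrays turned, 6 were called between the recipients, all higher, with Lyz2 at 6.14, Cyba at 2.40, Anxa1 at 7.59, Alox5ap at 5.86 and Clec4e at 2.87. With both transfers turned, Lyz2, Cst3, Cyba, Anxa1, Alox5ap and Clec4e were at -2.57, -1.83, -0.65, -2.80, -2.25 and -0.74 in NODtoB6 and at -3.57, -1.42, -1.75, -4.79, -3.62 and -2.13 in B6toNOD. The differences between the recipients were then 0.999, -0.40, 1.11, 1.99, 1.37 and 1.38, those of NOD minus NODtoB6 3.16, 2.26, 0.58, 4.05, 2.82 and 1.11 and those of NOD minus B6toNOD 4.16, 1.86, 1.69, 6.04, 4.19 and 2.50. The causes were not tested.

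Leaving out 1 array at a time gave 1 to 4 members called in NOD, 2 to 5 in NOD.H2h4, 1 to 5 in kidney, 1 to 5 in B6.NODIdd1,5 T cells, 5 to 7 in NODtoB6 and 6 to 6 in B6toNOD. It gave 2 to 6 for NOD.H2h4 minus NOD, 3 to 4 for B6.NODIdd1,5 T cells minus NOD, 1 to 2 for kidney minus T cells, 5 to 7 for NODtoB6 minus B6toNOD, 5 to 5 for NOD minus NODtoB6 and 6 to 6 for NOD minus B6toNOD. A lone array is assumed to vary like the other groups. The replicate numbers share only a number: over 15 pairs of groups, same-numbered arrays deviated together with correlations of -0.04 to 0.02. With the replicate block, 4 members were called for NOD.H2h4 minus NOD (main 6), Clec4d (adjusted p = 0.065) and Arg2 (adjusted p = 0.063) being lost, and the block changed no other count: 4 in NOD, 4 in NOD.H2h4, 3 in kidney, 4 in B6.NODIdd1,5 T cells, 6 in each recipient, 4 for B6.NODIdd1,5 T cells minus NOD, 2 for kidney minus T cells and 6 between the recipients.

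Over all features, calls in NOD were 1951, 191 as deposited, 4951 scaled, 1231 on the 10 spleen arrays and 189 to 2459 with 1 array left out. Calls in NOD.H2h4 were 6252, 10076 as deposited and 3830 to 7512 with 1 left out; in kidney 5222, and 2483 to 6385; in NODtoB6 4103, and 2317 to 5451; in B6toNOD 7342, and 4512 scaled. For NOD.H2h4 minus NOD they were 2835, 4293 as deposited and 993 to 3829 with 1 left out. For B6.NODIdd1,5 T cells minus NOD they were 3516, 1954 as deposited, 5473 scaled and 1613 to 4529 with 1 left out. For kidney minus T cells they were 3043, 1410 as deposited and 1495 to 3747 with 1 left out, and between the recipients 4918, and 3127 scaled. For NOD minus NODtoB6 they were 2874, 1419 as deposited, 4788 scaled and 884 to 3890 with 1 left out. The share of calls that were higher moved as deposited from 79.9% to 55% in NOD, 61.0% to 3.75% in NOD.H2h4, 67.0% to 8.54% in kidney, 47.6% to 26.8% in B6.NODIdd1,5 T cells, 51.3% to 16.7% in NODtoB6, 55.4% to 9.50% in B6toNOD, 65.9% to 1.54% for NOD.H2h4 minus NOD, 67.2% to 26.7% for kidney minus T cells, 38.2% to 80.7% between the recipients, 60.7% to 78.5% for NOD minus NODtoB6 and 44.9% to 88.6% for NOD minus B6toNOD. Centred on named genes it was 58.1% in B6.NODIdd1,5 T cells, 71.5% in NOD.H2h4 and 76.1% for NOD.H2h4 minus NOD, and scaled it was 63.7% in NOD, 44.8% for NOD.H2h4 minus NOD and 55.8% for NOD minus B6toNOD.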

Other observations

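Erythroid genes also moved between the groups. Of 12 listed, 5 were on the array. Beta globin (Hbb-b1) rose in NOD (3.31), NOD.H2h4 (1.85), NODtoB6 (2.84) and B6toNOD (1.74) and fell in B6.NODIdd1,5 T cells (-1.20), and the haem synthesis enzyme Alas2 rose in NOD (1.93) and NODtoB6 (2.82). Other genes of the list went the other way. In B6toNOD, 1 of 4 tested rose and 1, Gata1 (-1.14), fell (28.5% and 22.9% of all features), with a median of -0.52. In NOD.H2h4, 3 of 5 rose and 1, the transferrin receptor Tfrc (-0.40), fell (24.1% and 15.4% of all features). That Tfrc call was lost with arrays scaled to one spread (-0.34, adjusted p = 0.068). In B6.NODIdd1,5 T cells 4 of the 5 fell, the anion exchanger Slc4a1 furthest (-1.85), where 15.9% of all features fell. The 1 that rose there was Tfrc (0.41), which did not pass as deposited (0.23, adjusted p = 0.35).

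Dendritic cell and B cell markers were few on the array. Of 10 dendritic cell markers 5 were present, and in B6toNOD Zbtb46 (-2.85), a transcription factor of dendritic cells, and Cd209a (-2.34) fell, the latter not with arrays scaled to one spread (-1.53, adjusted p = 0.058), while in NODtoB6 Itgax (1.98) rose. Of 12 B cell markers 3 were present, and in B6toNOD the receptor chain Cd79b fell by 2.04 and the kinase Btk rose by 1.37. Of 9 NK cell markers 3 were present, and in B6toNOD Eomes (0.89) rose, though not as deposited (0.13, adjusted p = 0.40), and Ncr1 (-0.65) fell. In kidney, 2 of the 4 tubule markers on the array, of 12 listed, rose against B6 kidney, where 22.4% of all features rose. They were uromodulin (Umod, 1.01) and megalin (Lrp2, 0.88). As deposited, Lrp2 was at 0.42 (adjusted p = 0.094). Of the T cell markers, Cd28 (-1.39), Cd247 (-1.23) and Ccr7 (-0.39) fell in B6.NODIdd1,5 T cells, 3 of 4 tested, where 15.9% of all features fell. With arrays scaled to one spread, Ccr7 was at -0.44 (adjusted p = 0.060).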
